A study of Homo sapiens with 6 samples.

Results

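The matrix metalloproteinases (MMPs), the ADAM and ADAMTS metalloproteinases and the tissue inhibitors of metalloproteinases (TIMPs) were followed by bulk RNA-seq in LM3 cells, a human hepatocellular carcinoma (HCC) line, after stable knockdown of ZNF706, a gene for a C2H2-type zinc finger protein. Genes were chosen by symbol alone: MMP, ADAM or ADAMTS followed by a number, or TIMP1 to TIMP4. This gave 52 of the 33007 genes in the table, namely 18 MMP, 15 ADAM, 15 ADAMTS and 4 TIMP genes. The design asked how RNA levels differed between 3 samples with the vector control and 3 samples with stable ZNF706 knockdown. The study's methods describe shRNAs delivered by a pLKO lentiviral vector with puromycin selection, and the labels give the genotype of all 6 samples as WT. Which hairpin was used, and whether the line was a pool or a single clone, are not given in the sources used here. The samples of a group are not said to be separate cultures. The p-values therefore set the group difference against the spread between these samples, which may be technical.

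The MMP, ADAM and ADAMTS proteins are zinc-dependent proteases of the metzincin group. MMPs, made as inactive proenzymes, cut collagens, gelatin, laminins and other matrix proteins; ADAMs, most of them anchored in the membrane, shed the outer parts of receptors, growth factors and adhesion proteins; and the secreted ADAMTS enzymes cut proteoglycans and procollagens. TIMPs bind the active site of these enzymes, and in liver tumours the balance of proteases and inhibitors has long been studied for its part in invasion. Only RNA was measured here, not enzyme activity.

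The control samples held 62684076, 64713764 and 63054445 counts and the knockdown samples 68548419, 65861994 and 69057423. ZNF706 itself checked the labels. It had 3211, 3504 and 3357 counts in the control samples, against 2350, 2068 and 2298 with the knockdown. The groups did not overlap, and ZNF706 fell by 0.73 on the log2 scale (SE 0.050, adjusted p = 3.7e-05, quasi-likelihood test of edgeR, p adjusted by Benjamini-Hochberg over all 18390 genes tested). The knockdown therefore left 0.601 of the control level of this RNA.

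Control sample 1 and knockdown sample 3 stood apart from the other samples of their groups in some liver genes. ALB, the gene for serum albumin, had 189, 899 and 882 counts in the control samples, against 587, 635 and 138 with the knockdown. TF, for transferrin, had 37, 361 and 375 counts, against 234, 213 and 24, and GPC3, an HCC marker, had 6, 122 and 166, against 127, 101 and 0. Each group thus held a single sample low in these genes. Scaled to library depth, 6 of the 13 tested genes of the liver list (ALB, AFP, TF, TTR, GPC3 and EPCAM) were lowest of their group in both samples. The other 7 were not, among them HNF4A, highest in control sample 1 (122, 30 and 64 counts in the control samples), and APOA1, highest in knockdown sample 3 (0, 4 and 138 counts with the knockdown). With both samples left out, a setting chosen after seeing these values and with 2 samples left in each group, 7 of 40 tested genes of the protease and inhibitor families were called (adjusted p below 0.05, edgeR), where 15.1% of all genes were. With every sample in, the call was made for 13 of 41 and for 22.8% of all genes.

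Among the 52 genes, 13 passed this test, with 8 higher and 5 lower in the knockdown samples. The gelatinase MMP2, the collagenase MMP13, the membrane-type genes MMP24 and MMP25, the sheddase ADAM19, the catalytically inactive ADAM22 and the proteoglycan-cleaving ADAMTS5 and ADAMTS15 rose. MMP11, ADAMTS1, ADAMTS4, ADAMTS10 and the inhibitor TIMP3 fell. Of the 13 calls 3, MMP2, ADAMTS1 and ADAMTS15, were made in the reported fit and in all 14 other fits to the counts, and no called gene changed direction in any fit. With both samples low in ALB, TF and GPC3 left out, MMP24, ADAM19, ADAMTS4 and TIMP3 were called beside these, and MMP11, MMP13, MMP25, ADAM22, ADAMTS5 and ADAMTS10 were not. MMP2, MMP13, ADAM19, ADAMTS1 and ADAMTS15 were called whichever single sample was left out, and each of the other calls was lost in at least 1 of these fits. Between 5 and 9 genes of the family were called with a single sample left out, while the share called over all genes was between 13.9% and 18%.

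Of the 52 genes, 4 had no count in any sample (MMP9, ADAMTS2, ADAMTS3 and ADAMTS20). A count of 0 in a library allows up to 3 counts, for counting error only. A further 7 fell below the filter on low counts, with at most 17 counts in any sample (MMP10, MMP16, ADAM20, ADAM23, ADAM33, ADAMTS9 and ADAMTS14), and 41 were tested. Of these 41, 35 passed the filter's count in every sample, and all 13 called genes were among those 35. The other 6 include MMP3, MMP12, ADAM28 and ADAM32, which reached that count in all samples of a single group.

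Adjusted p below 0.05 was reached by 31.7% of the 41 tested genes, against a background of 22.8% of all 18390 tested genes. The 8 that rose were 19.5% of the 41, beside 10.4% of all genes, and the 5 that fell were 12.2%, beside 12.4% of all genes. Control and knockdown values did not overlap for 19 of the 41, or 46.3%, with a background of 39.4%. In the higher direction these were 12 genes, or 29.3%, beside 19.7%, and in the lower direction 7 genes, or 17.1%, beside 19.7%. The thresholds of the study ask for a p below 0.05 and a log2 fold change of 0.3 or more in size. Taken here with the unadjusted p of edgeR, 14 genes passed them, or 34.1%, beside 15.5% of all genes. Of these, 9 rose (22.0%, beside 9.61%) and 5 fell (12.2%, beside 5.88%). The median log2 fold change over the 41 was 0.09, beside 0.01 over all tested genes. With a single sample left out, the median over the tested genes of the family ranged from 0.026 to 0.15. These shares describe the list and were not tested.

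By family, 5 of 15 tested MMP genes (33.3%) were called, 4 higher and 1 lower. Of 12 tested ADAM genes, 2 (16.7%) were called, both higher. The ADAMTS family had 5 of 10 called (50%), with 2 higher and 3 lower. Among the 4 TIMP genes, 1 (25%) was called, and it was lower. The share called over all tested genes was 22.8%, and the shares by family were not tested against it.

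**Figure D1:**
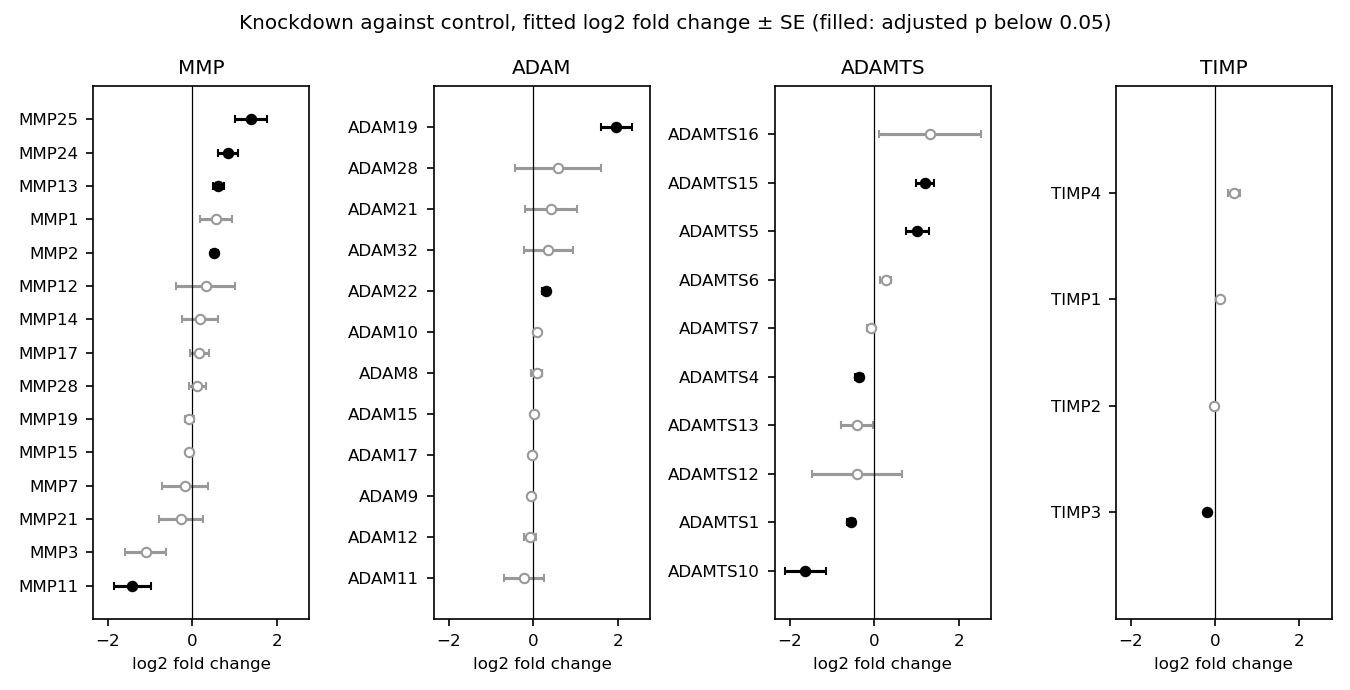
Fitted log2 fold change (knockdown against control, x axis) with its SE for the 41 tested genes, by family, with filled points for an adjusted p below 0.05. The filled points lie on both sides of 0 in the MMP and ADAMTS families, from -1.64 for ADAMTS10 to 1.96 for ADAM19, while ADAM9, ADAM10, ADAM15 and ADAM17 lie near 0.

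What the enzymes share is the zinc-binding stretch of the active site, in which 3 histidines hold the metal. In the coding sequences of GENCODE release 29 (GRCh38), this metzincin signature was found in 40 of the 52 genes, including all 18 MMP genes, 11 ADAM genes and 11 ADAMTS genes. Another 4 genes, ADAMTS1, ADAMTS4, ADAMTS9 and ADAMTS15, held a form with asparagine in place of the conserved glycine. No match was found in ADAM11, ADAM22, ADAM23 and ADAM32, nor in the 4 TIMP genes, which are inhibitors. So the called ADAM22, alone among the 8 that rose, encodes a protein in which neither form was found. The coding bases of 6 genes are shown to compare genes that rose, fell or were not called. Each is 33 bases of coding strand, with the 3 histidine codons in capitals.
MMP24 (rose): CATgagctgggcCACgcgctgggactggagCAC
MMP15 (not called): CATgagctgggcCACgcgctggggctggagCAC
MMP11 (fell): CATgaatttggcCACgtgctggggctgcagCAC
ADAM19 (rose): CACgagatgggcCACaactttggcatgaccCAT
ADAM17 (not called): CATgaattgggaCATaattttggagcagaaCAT
ADAMTS10 (fell): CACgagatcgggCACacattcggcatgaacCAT
These lie at chr20:35263817-35263849 (plus strand), chr16:58040563-58040595 (plus), chr22:23780885-23780917 (plus), chr5:157505734-157505766 (minus), chr2:9510078-9510110 (minus) and chr19:8596204-8596323 (minus), in that order. The first 5 lie within a single coding exon, and that of ADAMTS10 spans a splice site. The site was thus found in genes of all 3 outcomes.

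Levels between genes were compared on FPKM, which is scaled for gene length and library depth. The inhibitor TIMP1 had the highest control mean, at 74.6 FPKM. It was followed by ADAM9 (39.3), ADAM15 (26.6), TIMP2 (25.1) and MMP15 (15.3), a membrane-type MMP. These 5 genes were the only ones at or above 10 FPKM, 15 genes reached 1 FPKM, and 32 reached 0.1 FPKM. The next genes in this order were TIMP3 (8.33), the sheddases ADAM10 (7.03) and ADAM17 (5.55), and TIMP4 (4.62). None of the 5 most abundant genes was called, and of the 15 at 1 FPKM or more, MMP2, MMP13, ADAMTS1, ADAMTS4 and TIMP3 were. The range of ADAM15 over the control samples lay just above that of TIMP2, so that these neighbours in the order differ little, whereas TIMP1 and ADAM9 were well apart from each other.

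**Figure D2:**
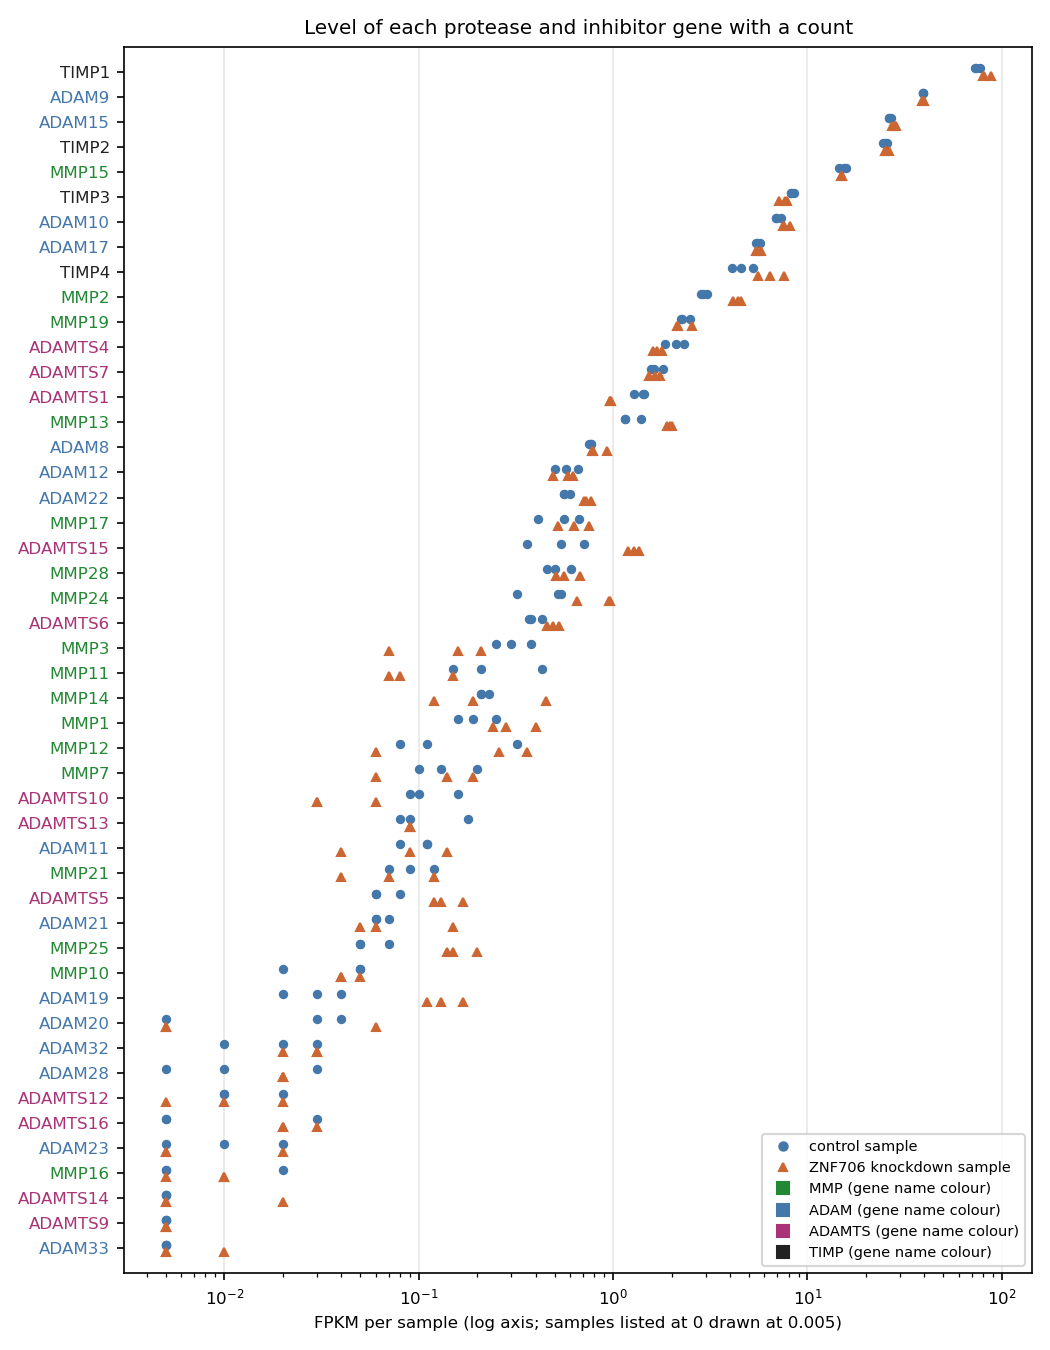
FPKM of each gene with at least 1 count, per sample, on a log axis, with circles for control and triangles for knockdown samples and genes ordered by the control mean. TIMP1 is highest at 74.6 FPKM, and ADAM19, MMP25 and ADAMTS5, whose groups are well apart, lie below 1 FPKM.

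Summed over each family, levels were set between groups on FPKM, which lacks the TMM scaling, and then on CPM. MMP levels were 24.5, 24.8 and 25.2 FPKM in the control samples, against 27.2, 27.0 and 27.1 with the knockdown. The knockdown sums were all higher, and MMP2 alone went from a mean of 2.93 to 4.36 FPKM. TIMP sums were 110.9, 115.9 and 110.9 FPKM in the control and 119.8, 118.9 and 129.5 in the knockdown samples, of which TIMP1 made up the largest share. The ratio of the TIMP to the MMP sum was 4.52, 4.68 and 4.40 in the control and 4.40, 4.40 and 4.78 in the knockdown samples, and these ranges overlapped. ADAM sums were between 80.0 and 80.9 FPKM in the control and between 82.5 and 83.6 in the knockdown samples, while ADAMTS sums overlapped, with 6.17 to 6.55 FPKM in the control and 6.19 to 6.69 in the knockdown samples. On TMM-scaled CPM the MMP sums stayed apart, at 118.0 to 122.2 in the control and 126.1 to 126.4 in the knockdown samples. The ADAM sums then overlapped, at 741.9 to 745.0 and 741.8 to 748.6 CPM, as did the TIMP sums, at 336.1 to 345.3 and 335.4 to 360.5 CPM. The ADAMTS sums overlapped on CPM as well, at 58.02 to 63.21 in the control and 55.65 to 59.81 in the knockdown samples.

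Among the secreted MMPs, MMP2 (chr16:55389700-55506239, GRCh38), a gelatinase that cuts denatured collagen and type IV collagen, had 979, 1058 and 959 counts in the control samples, against 1529, 1603 and 1631 with the knockdown. Every knockdown sample was above every control sample. On the scale of CPM, counts scaled to library depth with TMM factors, MMP2 went from 16.03 ± 0.542 to 23.0 ± 1.08 (SD, n = 3 per group), a log2 fold change of 0.52 (SE 0.074, adjusted p = 0.0011, edgeR). With any single sample left out the fold change stayed between 0.49 and 0.56 and the call held. The other gelatinase, MMP9, had no count in any of the 6 samples.

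MMP13 (chr11:102942995-102955732), a collagenase, had 232, 241 and 286 counts in the control samples, against 438, 428 and 422 with the knockdown. The groups were well apart, at 4.07 ± 0.514 CPM against 6.22 ± 0.176 CPM. The log2 fold change was 0.61 (SE 0.13, adjusted p = 0.0090, edgeR), and the call held whichever single sample was left out. With both samples low in ALB, TF and GPC3 left out it was 0.58, with an adjusted p of 0.057. MMP1, another collagenase, differed by 0.55 on the log2 scale with an SE of 0.38 and overlapping groups, and did not pass (adjusted p = 0.35, edgeR).

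MMP13 closes a run of MMP genes on chromosome 11 that also holds MMP7, MMP10, MMP1, MMP3 and MMP12, all on the minus strand. It lies 68.0 kb beyond MMP12. MMP13 was the only one of these 6 genes that was called, and MMP10 was below the filter. Levels of the others were low, with fewer than 1 CPM in either group. MMP3, a stromelysin that cuts matrix proteins and activates other MMPs, had 50, 35 and 40 counts in the control and 24, 30 and 10 in the knockdown samples. These groups did not overlap, yet MMP3 did not pass at a log2 fold change of -1.10 (SE 0.48, adjusted p = 0.14, edgeR).

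MMP7, the matrilysin, had 17, 23 and 34 counts in the control samples, against 27, 11 and 35 with the knockdown. The groups overlapped, at 0.397 ± 0.143 and 0.350 ± 0.171 CPM, and MMP7 did not pass (log2 fold change -0.18, SE 0.54, adjusted p = 0.86, edgeR).

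MMP11 (chr22:23768226-23784316), called stromelysin 3, fell. It had 160, 60 and 81 counts in the control samples, against 62, 28 and 35 with the knockdown. After scaling for depth the groups were just apart, and control sample 1 stood far above the other controls. The means were 1.62 ± 0.860 and 0.601 ± 0.249 CPM. The log2 fold change was -1.42 (SE 0.43, adjusted p = 0.040, edgeR), and without that control sample it was -0.91 with an adjusted p of 0.16. The call was kept only without control sample 2 or knockdown sample 1. With both samples low in ALB, TF and GPC3 left out the log2 fold change was -0.79 (adjusted p = 0.29).

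Among the membrane-type MMPs, MMP24 and MMP25 rose, MMP14, MMP15 and MMP17 were not called, and MMP16 was below the filter. MMP24 (chr20:35226690-35276998) had 168, 103 and 163 counts in the control and 328, 316 and 225 in the knockdown samples, at 2.33 ± 0.615 and 4.20 ± 0.854 CPM. All knockdown samples were above all control samples, with the third nearest to them. Its log2 fold change was 0.85 (SE 0.24, adjusted p = 0.027, edgeR), and without knockdown sample 2 the adjusted p was 0.10. Of the fits with a sample left out, those without control sample 1 and knockdown sample 3 called it. MMP25 (chr16:3046561-3060726), described from leukocytes, had 16, 23 and 17 counts in the control and 67, 49 and 47 in the knockdown samples. The knockdown samples were all higher, at 0.786 ± 0.150 against 0.299 ± 0.0551 CPM, with a log2 fold change of 1.39 (SE 0.38, adjusted p = 0.026, edgeR). With a sample left out the call was kept only without control sample 2 or knockdown sample 3, and the adjusted p reached 0.11.

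Both genes overlap others on the opposite strand, and the sources used here do not say whether strand was used in counting, so reads there cannot be told apart. Of the 4126 exon bases of MMP25, 1454 are shared with the antisense gene MMP25-AS1. MMP25-AS1 had more counts than MMP25, 135, 160 and 134 in the control and 221, 247 and 222 in the knockdown samples, and differed by 0.54 on the log2 scale (adjusted p = 0.040, edgeR). That call was lost in all 6 fits with a sample left out, where its adjusted p was between 0.057 and 0.14. Of the 4414 exon bases of MMP24, 799 are shared with MMP24OS, which did not pass (log2 fold change 0.24, adjusted p = 0.26, edgeR). Their part in the MMP25 and MMP24 results was not tested. Other genes of the family also share exon bases with a gene on the opposite strand. Among them, ADAM19 shares 62 of 7704 with CYFIP2 (mean count 27.2), and ADAM17 shares 1323 of 10750 with IAH1 (mean count 712.3). The part of CYFIP2 and IAH1 in the ADAM19 and ADAM17 results was not tested either.

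MMP14, which activates proMMP2 on the cell surface, had 74, 69 and 68 counts in the control and 160, 65 and 43 in the knockdown samples. A single knockdown sample was high and the other two were at or below the controls, and the gene did not pass (log2 fold change 0.19, SE 0.43, adjusted p = 0.80, edgeR). MMP15, the most abundant MMP, had 75.2 ± 3.77 CPM in the control and 71.0 ± 0.396 CPM in the knockdown samples (adjusted p = 0.21, edgeR). The other tested MMPs, MMP12, MMP17, MMP19, MMP21 and MMP28, had adjusted p-values between 0.65 and 0.80.

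Of the ADAM genes, ADAM19 (chr5:157395534-157575775), a membrane-anchored sheddase, had the highest fold change of all 41 tested genes. It had 25, 15 and 16 counts in the control samples, against 64, 99 and 80 with the knockdown. The groups were widely apart at a low level, 0.30 ± 0.0907 against 1.18 ± 0.283 CPM. The fold was 3.90, or 1.96 on the log2 scale (SE 0.37, adjusted p = 0.0042, edgeR), and the call held whichever sample was left out. Its mean count lies below the stricter filter of 50, under which it was not tested.

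ADAM22 (chr7:87934143-88202889), a neuronal adhesion receptor without protease activity, had 493, 542 and 490 counts in the control and 736, 668 and 685 in the knockdown samples. Although these groups did not overlap, at 8.16 ± 0.319 and 10.1 ± 0.368 CPM, the change was small, with a log2 fold change of 0.31 (SE 0.093, adjusted p = 0.041, edgeR). None of the 6 fits with a sample left out called it, with log2 fold changes of 0.28 to 0.34.

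The sheddases ADAM10 and ADAM17, which release Notch, growth factor and cytokine domains, were not called in the reported fit. ADAM10 had 8344, 8123 and 7874 counts in the control and 10220, 9071 and 9445 in the knockdown samples. After scaling the knockdown samples were all slightly above the controls, by 0.09 on the log2 scale (SE 0.042, adjusted p = 0.16, edgeR). After removal of a trend with GC content it was called at 0.20 (adjusted p = 0.0051), and under library size alone at 0.14 (adjusted p = 0.043). ADAM17 had 4150, 4532 and 4243 counts in the control samples, against 4873, 4394 and 4656 with the knockdown. Scaled for depth the groups overlapped, at 69.2 ± 2.12 and 67.2 ± 2.07 CPM (log2 fold change -0.04, SE 0.040, adjusted p = 0.52, edgeR). The most abundant of the family, ADAM9 and ADAM15, differed by -0.05 and 0.02 on the log2 scale, with adjusted p-values of 0.32 and 0.65 by edgeR. The remaining 6 tested ADAM genes, ADAM8, ADAM11, ADAM12, ADAM21, ADAM28 and ADAM32, had overlapping groups.

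The ADAMTS genes moved both ways, also within the hyalectanases, which cut aggrecan, versican and related proteoglycans. ADAMTS15 (chr11:130448974-130476641) had 285, 227 and 148 counts in the control samples, against 530, 578 and 572 with the knockdown. The control samples varied more than the knockdown samples, but stayed well below them, at 3.53 ± 1.10 against 8.12 ± 0.532 CPM. The log2 fold change was 1.20 (SE 0.20, adjusted p = 0.0027, edgeR), between 0.99 and 1.44 with a sample left out, and always called.

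ADAMTS1 (chr21:26835755-26845409) had 643, 753 and 721 counts in the control and 540, 518 and 541 in the knockdown samples. All 3 knockdown samples lay below the controls and almost on the same value, 7.72 ± 0.0162 CPM, against 11.3 ± 0.814 CPM. ADAMTS1 fell by 0.55 on the log2 scale (SE 0.096, adjusted p = 0.0030, edgeR), and this call too held whichever sample was left out. ADAMTS4 (chr1:161184302-161199054) had 1352, 1600 and 1715 counts in the control and 1308, 1385 and 1367 in the knockdown samples. The groups were apart only after scaling, at 25.0 ± 3.05 and 19.6 ± 1.00 CPM. The log2 fold change was -0.35 (SE 0.095, adjusted p = 0.026, edgeR), and of the fits with a sample left out only that without control sample 1 called it, the adjusted p being 0.087 without control sample 3. It was also not called without the filter on low counts and in limma on FPKM.

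ADAMTS5 (chr21:26917922-26967088) is the neighbour of ADAMTS1, on the same strand and 72.5 kb away, and it moved in the opposite direction. It had 44, 55 and 42 counts in the control samples, against 131, 96 and 91 with the knockdown. All knockdown samples were higher, at 1.53 ± 0.297 against 0.753 ± 0.0977 CPM. The log2 fold change was 1.02 (SE 0.26, adjusted p = 0.021, edgeR), and without knockdown sample 1 the adjusted p was 0.084. The call was kept only without control sample 2 or knockdown sample 3.

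ADAMTS10 (chr19:8580240-8610735), an enzyme tied to fibrillin microfibrils, had 41, 42 and 68 counts in the control and 30, 11 and 13 in the knockdown samples. All knockdown samples were lower, at 0.259 ± 0.146 against 0.810 ± 0.258 CPM, and ADAMTS10 fell by 1.64 on the log2 scale, with an SE of 0.49 at these low counts (adjusted p = 0.038, edgeR). Of the fits with a sample left out, only that without knockdown sample 1 called it. ADAMTS6, ADAMTS7, ADAMTS12, ADAMTS13 and ADAMTS16 were not called. Of the procollagen N-proteinases, ADAMTS2 and ADAMTS3 had no count and ADAMTS14 had 8 counts in all.

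**Figure D3:**
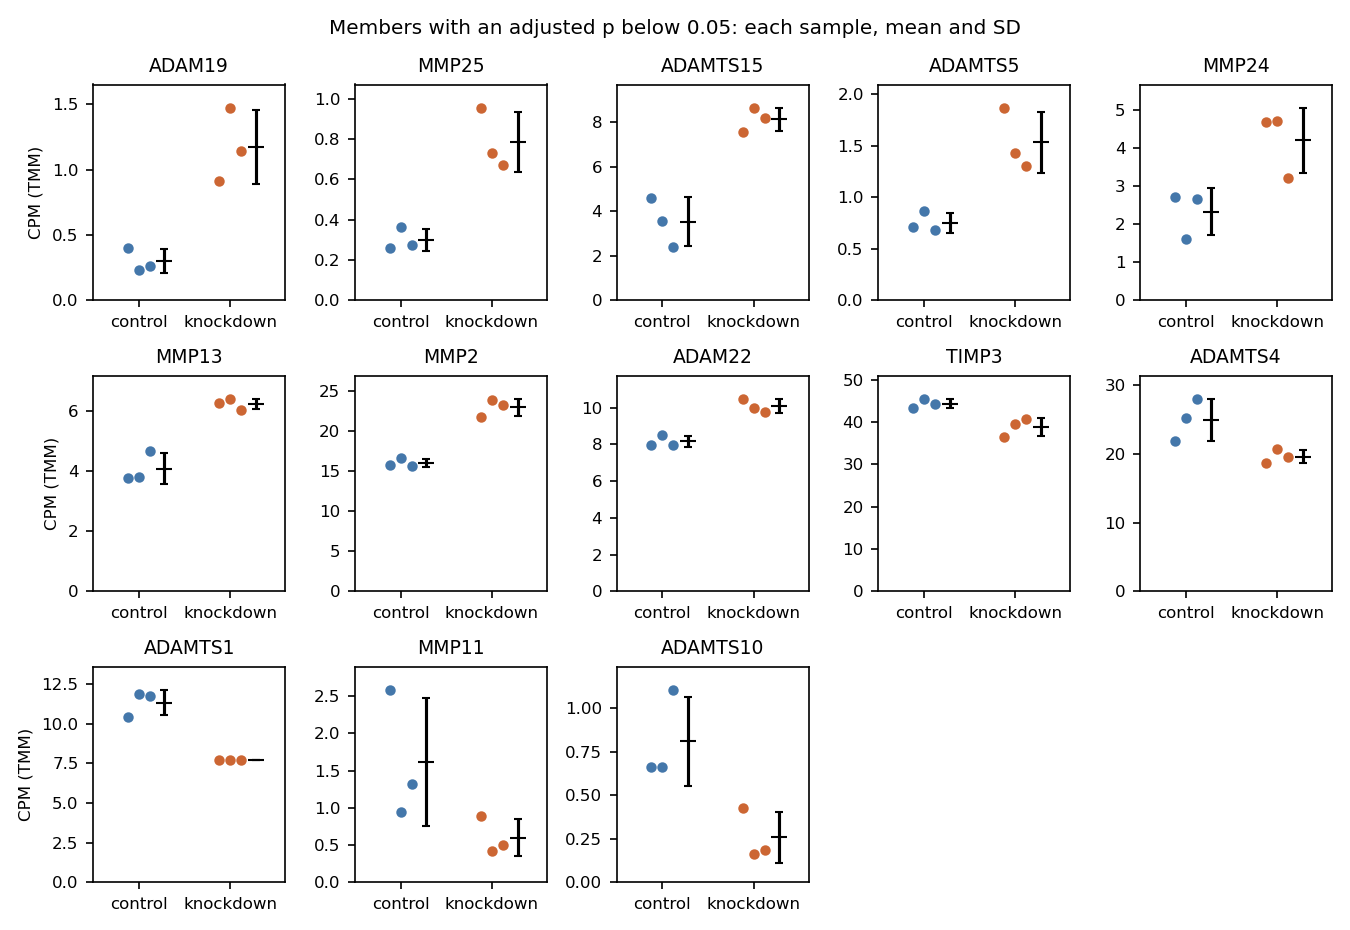
CPM (y axis, from 0, with TMM scaling) of the 13 called genes in each control and knockdown sample, with the mean and SD beside the points. The 3 knockdown samples of ADAMTS15, MMP2 and MMP13 lie clear of the controls, those of ADAMTS1 lie almost on 7.72 CPM, and in MMP11 a single control sample is far above the rest.

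All 4 TIMP genes were among the 9 highest in FPKM. TIMP1 (chrX:47582408-47586789) had 7460, 8221 and 7687 counts in the control and 9224, 8698 and 9975 in the knockdown samples. After scaling the groups were just apart, at 125.0 ± 4.40 and 134.6 ± 6.96 CPM, and TIMP1 did not pass (log2 fold change 0.11, SE 0.045, adjusted p = 0.13, edgeR). It was called higher under library size alone, at 0.16 (adjusted p = 0.026), and by limma on FPKM, at 0.15 with either pseudocount (adjusted p = 0.030 and 0.030), and neither of these uses the TMM scaling. TIMP2, which also takes part in the activation of proMMP2, had 10273, 10369 and 9957 counts in the control samples, against 11133, 10763 and 11699 with the knockdown. Its CPM of 163.8 ± 1.97 and 162.1 ± 4.46 overlapped (log2 fold change -0.01, SE 0.034, adjusted p = 0.82, edgeR).

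TIMP3 (chr22:32801705-32863041), which is bound to the matrix and inhibits ADAM and ADAMTS enzymes as well as MMPs, fell. It had 2685, 2896 and 2717 counts in the control and 2564, 2658 and 2843 in the knockdown samples. The raw counts overlapped, and after scaling the knockdown samples were all lower, at 38.9 ± 2.12 against 44.4 ± 1.09 CPM. The log2 fold change was -0.19 (SE 0.053, adjusted p = 0.028, edgeR). The call was kept without control sample 1 or knockdown sample 3 and lost without any other sample, with an adjusted p of up to 0.10. TIMP3 was also not called with library size alone as the scaling, without the filter on low counts and in limma on FPKM.

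TIMP4 (chr3:12153068-12158912) had 385, 462 and 350 counts in the control and 602, 497 and 708 in the knockdown samples. The groups did not overlap, at 6.40 ± 0.798 and 8.70 ± 1.36 CPM, and the gene lay at the threshold with a log2 fold change of 0.44 (SE 0.14, adjusted p = 0.051, edgeR). It was called by DESeq2, under library size alone, with the filter of a mean count of 50, by limma on FPKM, and without control sample 2 or knockdown sample 2, with adjusted p-values between 0.025 and 0.048. The other settings did not call it. TIMP1, TIMP3 and TIMP4 overlap SYN1, SYN3 and SYN2 on the opposite strand, and these genes had mean counts of 32.5, 9.8 and 18.5.

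**Figure D4:**
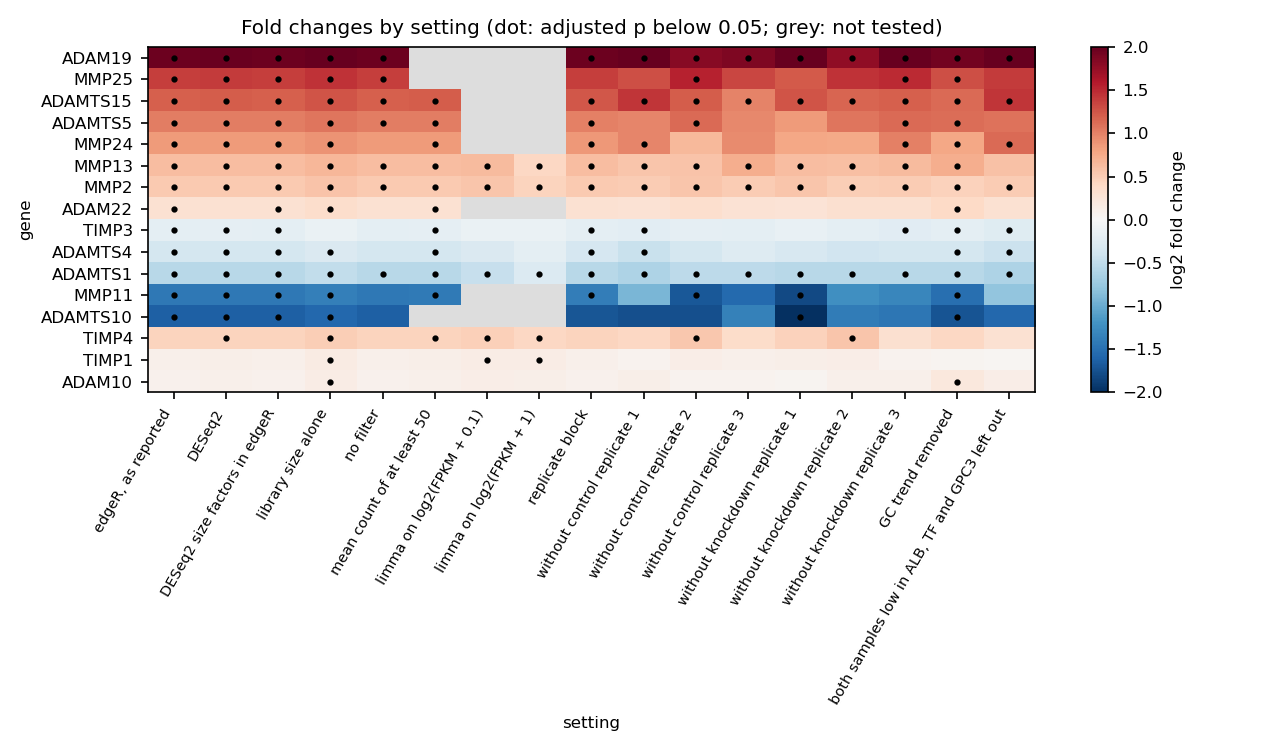
Log2 fold change (colour) of the 13 called genes and of TIMP4, TIMP1 and ADAM10 under each setting, with a dot for an adjusted p below 0.05 and grey for a gene not tested. MMP2 and ADAMTS1 carry a dot in every column, ADAMTS15 in every column where it was tested, MMP13 in all but the last, and ADAM22 in none of those that leave out a sample.

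Promoter windows of RefSeq (GRCh38.p14, 250 bases before to 50 after the start) were matched for 29 of the 52 genes. Among those not matched were MMP1, MMP2, MMP3, MMP9, MMP12, MMP13, MMP25, ADAMTS1, ADAMTS4, ADAMTS5 and ADAMTS15. Many MMP promoters are known for an AP-1 site near a TATA box, so the letters TGAGTCA or TGACTCA were searched on both strands. Among the 29 matched genes they were found in the window of 1 gene, MMP7, 67 bases before the start, and in 4.95% of all 35116 windows. MMP7 also held a TATA box (TATAAA or TTTATA), 30 bases before the start, and TATA boxes were found in 5 of the 29 genes and in 11.5% of all windows. A GC box (GGGCGG or CCGCCC) was found in 22 of the 29 genes and in 45.0% of all windows. The windows of MMP24, which rose, MMP11, which fell, and MMP7, which was not called, show both types, with the matches in capitals.
MMP24: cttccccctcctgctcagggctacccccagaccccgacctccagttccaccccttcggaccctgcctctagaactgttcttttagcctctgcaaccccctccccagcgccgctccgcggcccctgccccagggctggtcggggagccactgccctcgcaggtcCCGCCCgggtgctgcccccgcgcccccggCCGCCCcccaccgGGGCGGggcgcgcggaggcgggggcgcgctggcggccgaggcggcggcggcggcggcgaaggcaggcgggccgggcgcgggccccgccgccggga
MMP11: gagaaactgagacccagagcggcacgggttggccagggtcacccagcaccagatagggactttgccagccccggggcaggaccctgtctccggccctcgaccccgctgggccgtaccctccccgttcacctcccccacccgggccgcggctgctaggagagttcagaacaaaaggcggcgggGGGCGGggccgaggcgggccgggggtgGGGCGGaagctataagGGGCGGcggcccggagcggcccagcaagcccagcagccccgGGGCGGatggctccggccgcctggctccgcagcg
MMP7: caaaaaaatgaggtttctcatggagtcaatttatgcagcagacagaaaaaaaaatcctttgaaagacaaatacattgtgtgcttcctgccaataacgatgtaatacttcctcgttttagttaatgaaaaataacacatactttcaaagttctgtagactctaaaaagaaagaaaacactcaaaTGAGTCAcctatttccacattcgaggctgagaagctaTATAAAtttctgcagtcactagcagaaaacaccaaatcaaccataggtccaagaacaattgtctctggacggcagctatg
They lie at chr20:35226440-35226739 (plus strand), chr22:23772599-23772898 (plus) and chr11:102530698-102530997 (minus). GC boxes were thus present in the window of a gene that rose and of a gene that fell, 3 in MMP24 and 4 in MMP11. A match to these letters is a description and not a bound site.

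Genes that act with these proteases were taken from 9 lists of 118 genes in all, of which 92 were tested. Of these, 26 passed, 15 higher and 11 lower, or 28.3%, beside the 22.8% of all genes. Of 10 tested other inhibitors and regulators, 4 (40%) were called. SERPINE2, an inhibitor of serine proteases, and THBS1, a matrix protein that binds MMPs, rose by 0.66 and 0.50 on the log2 scale. A2M, a broad protease trap, fell by 0.86 on the log2 scale (adjusted p = 9.8e-05, edgeR), and TFPI2 fell by 0.21, with overlapping groups and a call kept in 2 of 6 fits with a sample left out. RECK, a membrane-bound MMP inhibitor, and BSG, an inducer of MMPs, were not called.

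In the plasminogen system 1 of 5 tested genes, the activator PLAT, rose by 0.56 on the log2 scale, a call kept only without control sample 1, while PLAU and its receptor PLAUR were not called. Of 11 cathepsins, CTSL rose by 0.39, and CTSD and CTSO fell by 0.19 and 0.76. The CTSO call was lost in all 6 fits with a sample left out, and those of CTSL and CTSD held in all 6. Among 7 tested convertases and activators, the membrane serine protease ST14 rose by 0.79, and FURIN, which removes the propeptide of many ADAM and membrane-type MMP proteins, was not called (log2 fold change -0.02). Of 11 other matrix-processing genes, the procollagen enhancer PCOLCE2, the fibroblast activation protein FAP and PAPPA, which cuts IGF-binding proteins, rose, and PCOLCE fell. Of 8 partners that carry or regulate ADAM10 and ADAM17, only RHBDF2, which brings ADAM17 to the surface, was called, with a log2 fold change of 0.33, and 3 of 6 fits with a sample left out kept it. Of 7 tested relatives of the family outside the naming rule, the antisense gene MMP25-AS1 was called, as described beside MMP25, and ADAMTSL4, an ADAMTS-like protein without protease domain, fell by 0.32. In the order of these lists, the shares called were 20%, 27.3%, 14.3%, 36.4%, 12.5% and 28.6% of tested genes, beside 22.8% of all genes.

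Called substrates went both ways as well, and most substrates were not called. Of 20 tested proteins known to be shed, 30% were called, beside 22.8% of all genes. Among them 3 rose (L1CAM by 0.36, SDC1 by 0.37 and MET by 0.20 on the log2 scale) and 3 fell (CD44 by 0.17, IL6R by 0.25 and AREG by 0.64). Each direction held 15% of the list, beside 10.4% of all genes higher and 12.4% lower. Of 13 tested matrix substrates, 30.8% were called, where 2 rose (FN1 by 0.65 and COL1A1 by 0.20) and 2 fell (LAMB3 by 0.46 and LAMA5 by 0.25). Each direction held 15.4% of that list. These shares were not tested.

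**Figure D5:**
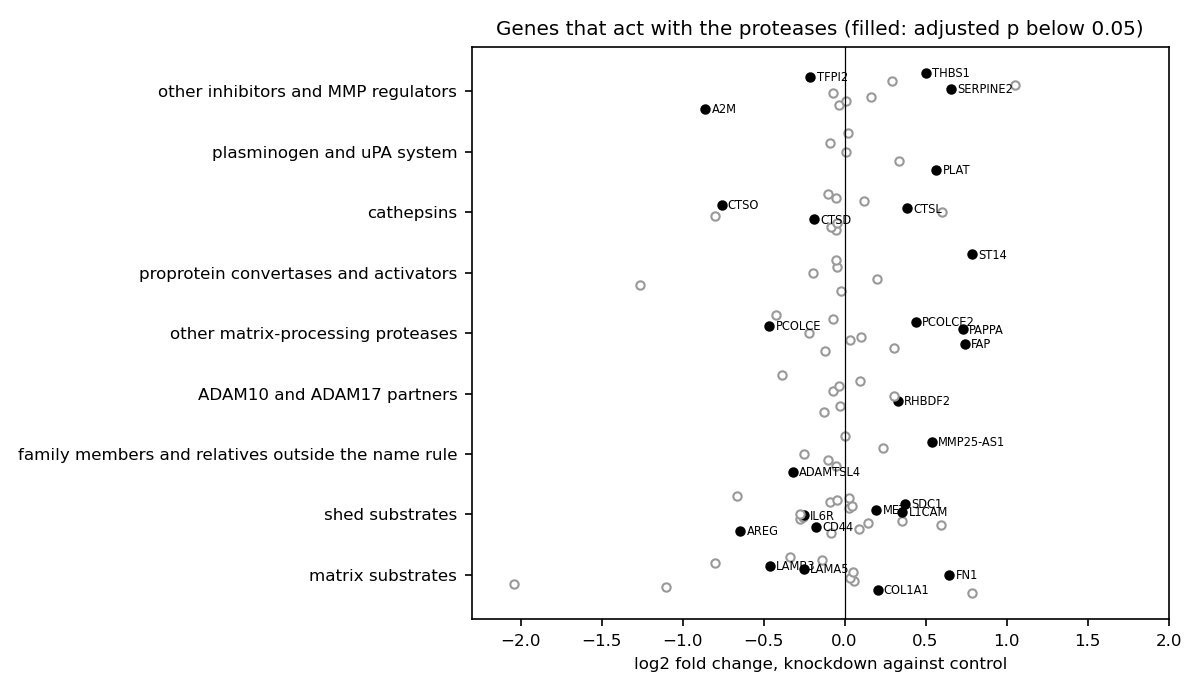
Log2 fold change (knockdown against control, x axis) of the 92 tested genes that act with the proteases, by list, with filled and named points for an adjusted p below 0.05. Of the called genes, ST14 lies farthest to the right at 0.79 and A2M farthest to the left at -0.86, and called genes lie on both sides of 0 in most lists.

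Markers were read to check the cell label and for genes of other cell types. In the list of 14 hepatocyte and HCC genes the cytokeratins KRT18 (270.6 FPKM in the control mean) and KRT8 (192.6) were abundant, while ALB (2.63), AFP (0.787) and HNF4A (0.133) were low and uneven between samples of a group, so that the label rests on the epithelial keratins more than on secreted liver proteins. Its summed level was 455.9, 467.0 and 489.1 FPKM in the control and 454.4, 469.9 and 470.8 in the knockdown samples, nearly all of it from the 2 keratins. Of 13 tested genes, 11 had a log2 fold change below 0 (median -0.70), and 2 fell, SERPINA1, with a call that held whichever sample was left out, and APOB, whose call was lost in 4 of 6 such fits. In the list of 8 fibroblast genes, 2 of 6 tested rose, COL1A1, its most abundant gene, and PDGFRB (0.68 on the log2 scale). The other 4 were below 0 and not called, among them LUM (-1.26) and COL3A1 (-2.04), both highest in control sample 1. LUM had 163, 49 and 74 counts in the control and 62, 52 and 18 in the knockdown samples. COL3A1 had 336, 0 and 48, against 42, 61 and 0. With a sample left out, LUM ranged from -1.59 to -0.63 and COL3A1 from -2.78 to 0.36. The sums of this list were 9.68, 8.05 and 8.45 FPKM in the control and 9.93, 10.3 and 9.76 in the knockdown samples, but COL1A2 (0.0533 FPKM) and DCN (0.030) were near 0 in the control mean. COL1A2 had 117, 8 and 0 counts in the control and 0, 0 and 119 in the knockdown samples. It was thus high only in the samples low in ALB, TF and GPC3. In the list of 5 endothelial genes, of which 4 are in the table, CDH5, the most abundant, fell and PECAM1 was not called, with sums of 1.83, 1.99 and 2.15 FPKM in the control and 1.44, 1.64 and 1.69 in the knockdown samples.

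In the list of 7 leukocyte and macrophage genes, of which 5 are in the table, CD68 and CSF1R rose by 0.64 and 0.49 on the log2 scale, and its sums were 14.7, 14.6 and 14.4 FPKM in the control and 22.4, 23.5 and 22.7 in the knockdown samples. CD68 was its most abundant gene, and the defining markers PTPRC and CD79A had 16 and 4 counts in all 6 samples together. These markers moved beside MMP2, MMP25 and other genes of the family that rose, and their part in those results was not tested. In bulk RNA, a change in the number of cells that express a gene and a change in RNA per cell cannot be told apart.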

How the data were processed

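Total RNA of LM3 cells was sequenced on an Illumina NovaSeq in 3 control and 3 ZNF706 knockdown samples. Per the submitters' processing notes, reads were trimmed with cutadapt 1.9 and checked with FastQC. The study's methods name HISAT2 for mapping and DESeq2 for its comparison, and the processing notes give the build as GRCh38. The counting program, its strand setting and the annotation release are not given in the sources used here. The authors deposited a table of raw counts per gene, which are not normalized, and FPKM per gene, scaled by them for length and depth and given to 2 decimals. The values of each sample came from columns that carry its title. Gene positions overlapped those of GENCODE release 29 for 99.9% of 32092 shared genes.

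From the counts, edgeR 4.0.16 in R 4.3.3 was run over the whole table: filterByExpr, TMM scaling, glmQLFit and glmQLFTest with the group alone, and Benjamini-Hochberg adjustment over 18390 genes. A gene is called at an adjusted p below 0.05. SE is the size of the log2 fold change over the root of F. FPKM were used to compare levels between genes, for sums over families and marker lists, and in limma 3.58.1. Alternatives were DESeq2 1.42.0, other scalings and filters, limma on log2(FPKM + 0.1) and log2(FPKM + 1), a replicate block, each sample left out and, added after seeing the data, removal of a GC trend and both samples low in ALB, TF and GPC3 left out. Exact permutation of 3 against 3 samples cannot go below 0.1 and was not used. Values in every sample are given for called genes, the TIMP genes, MMP2, MMP7, MMP9, MMP14, ADAM10 and ADAM17, and other genes are named by role. The genes and lists were chosen with earlier results of these data known, and the GC box and TATA box after seeing the data. The procedure was tested on simulated data. From the lists of genes that act with the proteases, 2 genes are not reported here.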

Additional observations from a re-analysis of the deposited data

How the results depend on the processing

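With 3 samples a group, 8 of the 13 calls were lost with at least 1 sample left out. Counts of called genes moved by over 1.5 times as follows. Without a filter on low counts 7 of 48 genes were called (9.55% of all genes), 1 of them lower, with MMP11, MMP24, ADAM22, ADAMTS4, ADAMTS10 and TIMP3 lost. In limma on FPKM, with 15 genes of at least 1 FPKM on average, 5 were called at either pseudocount (33.5% and 33.6% of all genes), 4 higher and 1 lower, with ADAMTS4 and TIMP3 tested there and lost. Of these 15 genes, 9 did not overlap between groups, and 4 (pseudocount 0.1) or 3 (pseudocount 1) passed the study's thresholds. The shares of all genes for non-overlap and for these thresholds were not taken in limma, so those counts stand without a background. With a sample left out, the genes called ranged from 5 to 9 (5 without control sample 3, where 16.2% of all genes were called, and 6 without knockdown sample 2, where 13.9% were), those higher from 4 to 7, those lower from 1 to 3, and the median log2 fold change from 0.026 to 0.15. That median was 0.14 under library size alone, where the median of all genes was 0.063. In limma with pseudocounts of 0.1 and 1 it was 0.0067 and 0.0058, below the medians of all genes, 0.027 and 0.023. After removal of a trend with GC content it was 0.050, beside 0.027 over all genes. With both samples low in ALB, TF and GPC3 left out it was 0.023, beside 0.012 over all genes. These last 2 settings were chosen after seeing the data. In the last, 7 genes were called (15.1% of all genes), 4 higher and 3 lower. Among the genes not called that are described in full, the sign turned for TIMP2 (0.039 under library size alone, 0.034 and 0.032 in limma with pseudocounts of 0.1 and 1), ADAM17 (0.012, 0.0067 and 0.0058 in the same settings, 0.071 after GC removal) and MMP14 (-0.0094 with the replicate block), and with a sample left out for TIMP2 (-0.037 to 0.0012), MMP14 (-0.51 to 0.53) and MMP7 (-0.53 to 0.16). Over all 28 genes tested and not called, 13 changed sign with a sample left out. The cause was not tested, except that fewer genes entered limma. Deviations of same-numbered samples correlated at 0.027, -0.028 and 0.029, beside -0.052 to 0.027 for samples with different numbers. No deviation shared by same-numbered samples was thus seen, which cannot show whether they were prepared together. With a replicate block 10 genes were called (23.7% of all genes), with MMP25, ADAM22 and ADAMTS10 lost. DESeq2 lost ADAM22. TIMP4 was gained by DESeq2, library size alone, a mean count of 50, limma and 2 fits with a sample left out, TIMP1 by library size alone and limma, ADAM10 by library size alone and GC removal, MMP15 by GC removal and ADAMTS16 without control sample 1.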
